A study of Mus musculus with 40 samples.

Results

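The expression of 10 antioxidant defence genes (Gpx1, Cat, Sod1, Sod2, Txn1, Txnrd1, Gclc, Prdx2, Hmox1 and Nqo1), of 16593 genes named on the array, was examined in the whole brain of young male mice that differed in their mothers' diet and in their own. Every probe that the array's annotation assigned to one of these gene symbols was taken, which gave 15 of the 25697 probes of the array: 7 genes had 1 probe, Nqo1 had 2, and Txn1 and Prdx2 had 3 each. All animals were male C57BL/6J offspring killed at 9 weeks of age. Their dams were kept on low-fat (LF) or high-fat (HF) feed through pregnancy and until weaning at day 21, and the young were then given either the LF or the HF diet. This gave 4 groups of 10 animals, written maternal diet first: LF_LF, LF_HF, HF_LF and HF_HF. There were 12 breeding cages (6 per maternal diet, with 5 of the 12 represented under both post-weaning diets), and cage mates shared their mothers' environment. One Illumina array was hybridised per animal.

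Oxidants such as superoxide and hydrogen peroxide are by-products of respiration, and the brain, with its high oxygen use and its lipid-rich membranes, relies on layered enzymes to remove them. Superoxide dismutases turn superoxide into hydrogen peroxide, and catalase, glutathione peroxidases and peroxiredoxins then remove the peroxide. Glutathione and thioredoxin supply the electrons for the peroxidases and peroxiredoxins. The transcription factor NRF2 (encoded by Nfe2l2) raises many of these genes through a short DNA motif, the antioxidant response element.

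Promoter sequences (250 bases before to 50 after the start of transcription, RefSeq, mouse build GRCm38.p6) were found for 8 of the 10 genes, in 10 windows. Gclc and Hmox1 had no entry. The core of the antioxidant response element (TGACNNNGC, searched on both strands) occurred in 2 of the 10 windows, against 12.4% of 32851 promoters. One was the second of 3 Txnrd1 windows (chr10:82858956-82859255, plus strand), where the match starts at position -92 from the start of transcription. The other was Sod1 (chr16:90220512-90220811, plus strand), where it starts at -56. Both matches lie on the opposite strand, so the capitals show the element's reverse complement. The Txn1 window (chr4:57956362-57956661, minus strand) is shown beside them because Txn1 varied the most among animals. It holds no such match and 4 GC boxes (GGGCGG, either strand), a motif present in 8 of the 10 windows and in 35.7% of all promoters. The CCAAT box occurred in 4 of the 10 windows and in 37.4% of all promoters. The overlap of one motif with another was not scored. A match describes the letters only.
Txnrd1: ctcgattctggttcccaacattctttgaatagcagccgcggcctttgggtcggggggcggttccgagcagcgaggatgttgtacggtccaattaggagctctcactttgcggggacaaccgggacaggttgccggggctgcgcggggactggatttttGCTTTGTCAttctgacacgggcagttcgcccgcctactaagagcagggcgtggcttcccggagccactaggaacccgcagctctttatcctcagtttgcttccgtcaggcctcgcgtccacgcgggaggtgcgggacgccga
Sod1: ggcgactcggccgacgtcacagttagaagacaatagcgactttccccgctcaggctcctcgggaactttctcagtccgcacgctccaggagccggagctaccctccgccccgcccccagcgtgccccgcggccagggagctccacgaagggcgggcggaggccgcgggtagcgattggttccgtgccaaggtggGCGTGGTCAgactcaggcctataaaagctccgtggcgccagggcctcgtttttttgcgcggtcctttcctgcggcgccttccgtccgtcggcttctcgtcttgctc
Txn1: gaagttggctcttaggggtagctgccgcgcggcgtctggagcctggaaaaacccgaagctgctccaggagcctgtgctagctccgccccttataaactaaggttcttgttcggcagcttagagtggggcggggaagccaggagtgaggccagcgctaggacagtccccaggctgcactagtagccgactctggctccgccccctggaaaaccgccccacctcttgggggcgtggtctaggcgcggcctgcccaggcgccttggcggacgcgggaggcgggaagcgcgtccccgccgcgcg

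Background was set for each array from 1362 probes for olfactory, vomeronasal, taste and trace-amine receptors, genes not used by most brain cells (their 95th percentile, 81.8 to 91.4 intensity units). Neuronal identity of the tissue was checked with 9 neuron markers, of which 7 were above background at a mean log2 intensity of 11.59 to 11.63 in the 4 groups. Of the member probes 13, covering all 10 genes, were above background in at least 20 of 40 arrays and were tested among 14350 such probes. The remaining 2, probe 3 of Txn1 and probe 2 of Nqo1, were above background in 0 of 40 arrays and were not tested (66.9 to 77.6 and 61.2 to 83.1 intensity units). The probes of a gene are numbered by falling mean intensity.

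The main difference among the 40 arrays was not a difference between diets. The first principal component of the other probes held 54.7% of the variance. It divided the animals at a gap in the scores from -0.0633 to 0.0511 into 15 with negative and 25 with positive scores. Animals with negative scores numbered 5 of 10 in LF_LF, 2 of 10 in LF_HF, 4 of 10 in HF_LF and 4 of 10 in HF_HF. This division was made from the data after they were seen and is not a group of the study. Its source was not tested, and the array's chip and position were not used here. By their mean correlation with the rest (0.958 to 0.983 over all arrays) 5 arrays stood apart. These 5 had the lowest component scores (-0.282 to -0.262) and came from LF_LF, HF_LF and HF_HF. Leaving them out is therefore not a check independent of the component.

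No antioxidant gene passed in any comparison of diets. At a false discovery rate of 0.05 (limma, adjusted over 14350 probes) 0 of 13 member probes were called in each of the 4 pairwise comparisons, in the interaction and in both averaged comparisons. The share of all tested probes called was 0% in the pairwise comparisons, the interaction and the averaged maternal comparison, and 0.0139% (2 probes) in the averaged post-weaning comparison. At an unadjusted p under 0.05 there were 0 member probes for maternal diet in LF-fed offspring (1.38% of all probes) and 2 in HF-fed offspring (4.44%). For post-weaning diet there were 2 among offspring of LF-fed dams (5.53%) and 0 among offspring of HF-fed dams (1.21%). There were 0 in the interaction (0.962%) and in the averaged maternal (4.24%) and post-weaning (5.56%) comparisons. The p-values given below for diet comparisons are from limma.

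**Figure D1:**
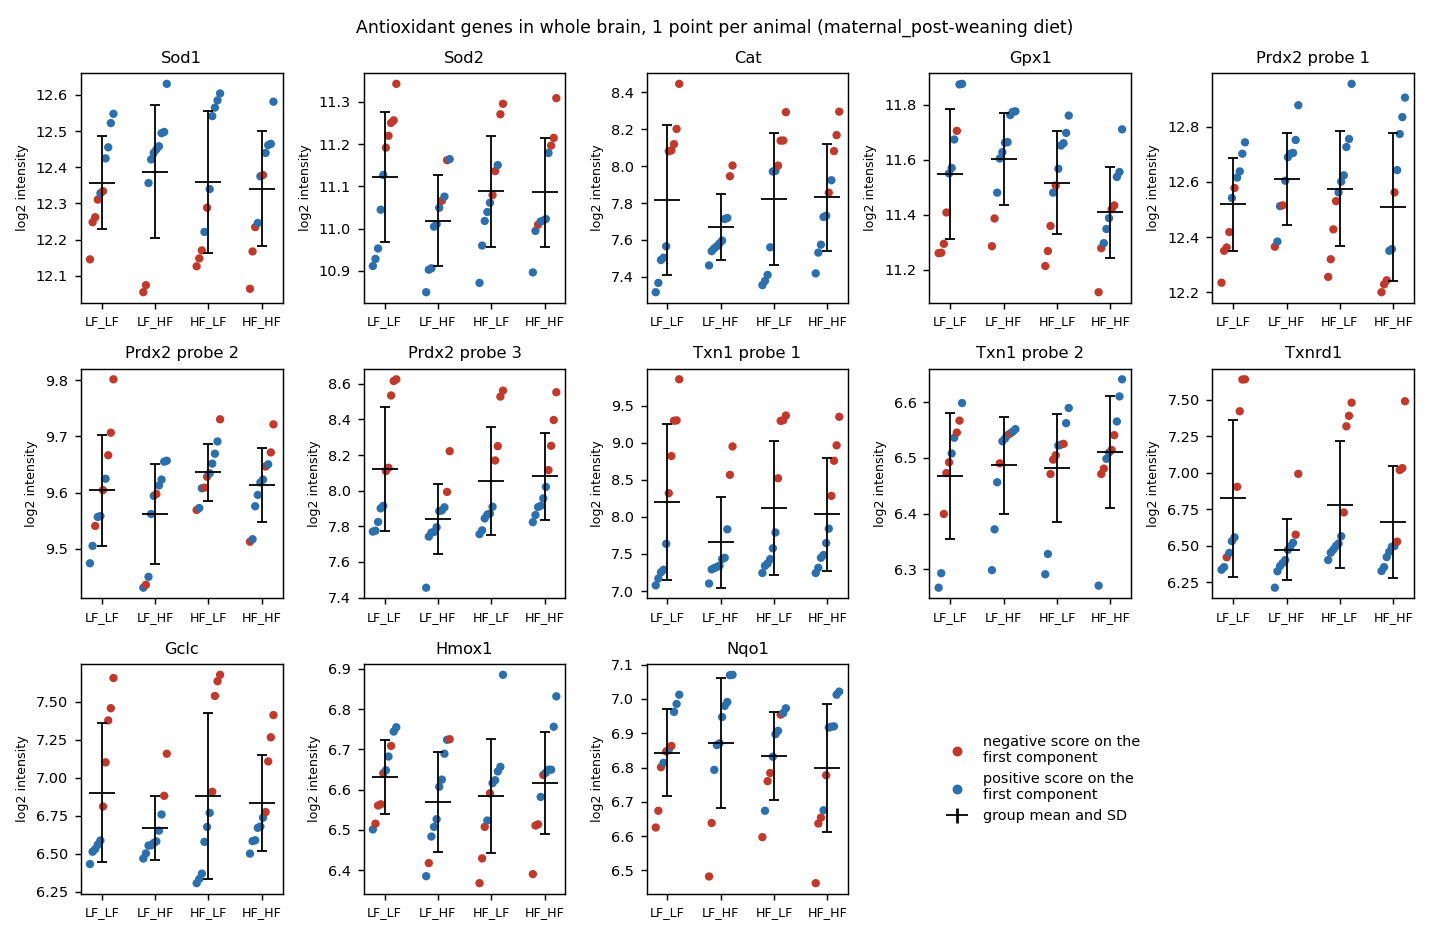
Log2 intensity of the 13 tested probes, 1 point per animal in 4 groups of 10, with the group mean and SD. Red points are the 15 animals with a negative score on the first principal component and blue points the 25 with a positive score. In the panel for Txn1 probe 1 every red point lies above every blue point, while the 4 groups overlap in all panels.

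The superoxide dismutases differed little between diets. Sod1, the copper-zinc enzyme of the cytosol, had a lowest, median and highest intensity of 4529.9, 5152 and 5987.9 in LF_LF and of 4253.7, 5574 and 6341.9 in LF_HF. The values were 4470.5, 5092 and 6226.2 in HF_LF and 4281.7, 5318 and 6128.4 in HF_HF. The groups overlapped almost fully, and the 4 pairwise log2 differences lay between -0.05 and 0.03, with every 95% confidence interval within -0.20 and 0.17. Sod2, the manganese enzyme of mitochondria, ranged from 1844.9 to 2596.8 over all animals, with group medians of 2287 in LF_LF, 2091 in LF_HF, 2150 in HF_LF and 2078 in HF_HF. Its log2 difference was -0.10 for post-weaning diet among offspring of LF-fed dams (SE 0.0608, 95% confidence interval -0.23 to 0.02, adjusted p = 0.717) and at most 0.07 in size in the other pairwise comparisons.

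Gpx1, the main glutathione peroxidase of the cytosol, had the smallest p-value of the 10 genes. Its lowest, median and highest intensity was 2495.9, 3202 and 3507.2 in LF_HF. It was 2222.4, 2710 and 3351.4 in HF_HF. The ranges overlapped, with the HF_HF median below that of LF_HF. After maternal HF feeding, HF-fed offspring had a log2 difference of -0.19 (SE 0.0737, 95% confidence interval -0.35 to -0.04, or 0.87-fold), with unadjusted p = 0.0154 and adjusted p = 0.853. In LF-fed offspring, LF_LF had values of 2452.6, 3019 and 3759.0 and HF_LF of 2374.2, 2972 and 3469.6 (log2 difference -0.03, SE 0.0913, adjusted p = 1). The interaction, which tests whether the maternal difference depends on the post-weaning diet, was -0.16 for Gpx1 (SE 0.119, 95% confidence interval -0.40 to 0.08, adjusted p = 0.998).

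The Gpx1 difference in HF-fed offspring was -0.20 (SE 0.0713) in the 14 animals with positive component scores and -0.02 (SE 0.107) in the 6 with negative scores. With the component as a covariate it was -0.13 (adjusted p = 1). In the same comparison blood markers, of which 6 of 8 were on the array and 5 above background, were lower in 5 of 5. Of these 4 had an unadjusted p under 0.05 (limma, 4.44% of all probes), and the median log2 difference was -0.34. Their summed intensity ran from 5639 to 16223 in LF_HF and from 4388 to 9594 in HF_HF. Choroid plexus, oligodendrocyte and microglial markers shifted too, with 0 genes at an unadjusted p under 0.05. All 9 choroid plexus markers above background were higher (median 0.16). Lower were 8 of 9 oligodendrocyte markers (median -0.09) and 8 of 10 microglial markers (median -0.06). Endothelial markers were higher in 3 of 8, 1 of them at an unadjusted p under 0.05 (median -0.01). Astrocyte markers were lower in 6 of 9 (median -0.05) and neuron markers higher in 5 of 7 (median 0.06). The part of blood or of these cell types in the Gpx1 difference was not tested. Whole-brain values do not tell fewer cells of a type from less RNA per cell.

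Catalase (Cat), the peroxisomal enzyme that splits hydrogen peroxide, had a lowest, median and highest intensity of 159.4, 230.1 and 348.8 in LF_LF and of 176.3, 192.5 and 256.6 in LF_HF. In HF_LF the values were 163.7, 251.2 and 313.6, and in HF_HF 171.1, 222.1 and 314.2. LF_HF had the narrowest spread of the 4 groups for Cat (SD 0.18 on the log2 scale, against 0.29 to 0.41). The pairwise log2 differences were -0.15 (SE 0.133) for post-weaning diet among offspring of LF-fed dams and 0.16 (SE 0.103) for maternal diet in HF-fed offspring, which share the LF_HF animals, and the other pairwise differences were 0.00 and 0.01. In the animals with positive component scores the first of these was 0.14 (SE 0.0606, adjusted p = 0.982), opposite in sign.

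The 3 probes of Prdx2, a cytosolic peroxiredoxin abundant in neurons and red cells, did not give the same differences. Probe 1 had lowest, median and highest intensities of 4818.9, 6038 and 6855.5 in LF_LF and of 5275.3, 6416 and 7524.6 in LF_HF. They were 4890.2, 6128 and 7940.0 in HF_LF and 4705.8, 5645 and 7670.4 in HF_HF. LF_HF had the highest median and HF_HF the lowest, with broad overlap. Probe 2 stayed between 690.2 and 892.3 in all 40 animals. Probe 3 had values of 218.3, 258.9 and 395.0 in LF_LF and of 175.5, 229.2 and 298.6 in LF_HF. It had 216.2, 237.3 and 378.0 in HF_LF and 226.5, 254.2 and 375.6 in HF_HF, so that LF_HF had the lowest median, the reverse of probe 1.

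For maternal diet in HF-fed offspring Prdx2 probe 3 differed by 0.24 on the log2 scale (SE 0.0964, 95% confidence interval 0.04 to 0.44, unadjusted p = 0.0217, adjusted p = 0.853), while probe 1 differed by -0.10 (SE 0.0943) and probe 2 by 0.05 (SE 0.0449). For post-weaning diet among offspring of LF-fed dams probe 3 differed by -0.28 (SE 0.12, unadjusted p = 0.0308, adjusted p = 0.717), probe 1 by 0.09 (SE 0.0724) and probe 2 by -0.04 (SE 0.0493). Both comparisons use the LF_HF animals. Among offspring of LF-fed dams the probe 3 difference was -0.06 among positive and -0.30 among negative component scores, the latter with only 2 LF_HF animals, and without cage 4 it was -0.17. In HF-fed offspring it was 0.14 and 0.22 on the respective sides, and without cage 9 it was 0.17. The transcript positions of the probes were not used here.

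Agreement between probes of a gene was tested among animals with diet group means subtracted, separately on each side of the component, because the animals formed separate clusters. Of 8 probe pairs tested none passed (permutation, adjusted over 8 tests). Prdx2 probes 1 and 3 had Pearson's r = -0.63 and Spearman's rho = -0.62 in the 15 animals with negative scores (permutation p = 0.0119, adjusted p = 0.0606), and r = 0.04 in the 25 with positive scores (adjusted p = 0.865). Probes 1 and 2 had r = 0.48 and rho = 0.48 in the 25 animals (permutation p = 0.0152, adjusted p = 0.0606) and r = -0.08 in the 15 (adjusted p = 0.865). Txn1 probes 1 and 2 had r = -0.36 and -0.26 on the negative and positive side (permutation adjusted p = 0.284 for both). Without the 2 farthest animals the 3 values with the largest size among these became -0.45, 0.43 and -0.12.

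Txn1 and Txnrd1 encode cytosolic thioredoxin and the selenoenzyme that reduces it with NADPH. Txn1 probe 1 varied more between animals than any other member probe. Its lowest, median and highest intensity was 135.0, 259.2 and 925.9 in LF_LF and 137.3, 167.2 and 494.3 in LF_HF. It was 151.6, 206 and 659.9 in HF_LF and 151.5, 214.9 and 652.1 in HF_HF. All 4 groups spanned low and high animals. The log2 difference for post-weaning diet among offspring of LF-fed dams was -0.54 (SE 0.353, 95% confidence interval -1.27 to 0.19, adjusted p = 0.717), an interval that includes 0.41-fold and 1.14-fold. Among animals with positive component scores it was 0.10 (SE 0.108). For maternal diet in HF-fed offspring the Txn1 probe 1 difference was 0.37 (SE 0.282, 95% confidence interval -0.21 to 0.96, adjusted p = 0.853). Txn1 probe 2, near background, lay between 77.0 and 99.8 in all animals and differed by at most 0.03 in any pairwise comparison.

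Txnrd1 was close to background and above it in 26 of 40 arrays. Its lowest, median and highest intensity was 80.8, 93.35 and 199.3 in LF_LF and 74.2, 86.7 and 127.3 in LF_HF. It was 84.6, 93.1 and 178.4 in HF_LF and 80.3, 90.25 and 179.6 in HF_HF. The groups overlapped, and LF_HF had the lowest median and the lowest of the 4 highest values. The log2 difference was -0.35 for post-weaning diet among offspring of LF-fed dams (SE 0.168, 95% confidence interval -0.70 to 0.00, unadjusted p = 0.0492, adjusted p = 0.717). It was -0.05 (SE 0.0605) among positive component scores, -0.17 (SE 0.143) without the arrays that stood apart, and -0.13 without cage 4.

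Gclc, the catalytic subunit of glutamate-cysteine ligase and the rate-limiting enzyme of glutathione synthesis, had a lowest, median and highest intensity of 86.4, 104.2 and 201.6 in LF_LF and of 88.6, 95.45 and 142.8 in LF_HF. In HF_LF the values were 79.2, 105.7 and 204.6, and in HF_HF 90.6, 104.6 and 170.3. The highest Gclc value was lowest in LF_HF, as for Txn1, Txnrd1 and Cat, and the log2 difference for post-weaning diet among offspring of LF-fed dams was -0.23 (SE 0.147, adjusted p = 0.717). This Gclc difference was 0.06 (SE 0.0535) among positive component scores, -0.04 with the component as a covariate, -0.08 (SE 0.124) without the arrays that stood apart, and -0.07 without cage 4. LF_HF was also the group with 2 rather than 4 or 5 animals of negative score. In this comparison all 9 choroid plexus markers above background (of 9 on the array and 10 listed) were lower (median -0.48, 0 with an unadjusted p under 0.05), with summed intensities from 1313 to 26785 in LF_LF and from 891 to 24802 in LF_HF. The share of all probes with an unadjusted p under 0.05 was 5.53% here. Of 10 microglial markers above background (13 listed, 10 on the array) 7 were higher, 4 of them at an unadjusted p under 0.05 (median 0.15), with summed intensities of 3720 to 4454 and 3887 to 4885. Of the 5 blood markers 4 were higher, 3 of them at an unadjusted p under 0.05 (median 0.13), with summed intensities of 5536 to 11958 in LF_LF and 5639 to 16223 in LF_HF. Of 9 oligodendrocyte markers above background 8 were lower, 0 of them at an unadjusted p under 0.05 (median -0.10), with sums of 39232 to 65869 and 40893 to 63130. Endothelial markers were higher in 5 of 8, 2 of them at an unadjusted p under 0.05 (median 0.07). Astrocyte markers were higher in 6 of 9, 0 of them at that threshold (median 0.12). Their part in the gene differences was not tested, and no intensity in the table was 0 (lowest 48.4).

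The stress-inducible enzymes also differed little. Hmox1, which degrades haem, was above background in 35 of 40 arrays and lay between 82.6 and 118.2 in all animals, with group medians of 100 in LF_LF, 94.85 in LF_HF, 97.25 in HF_LF and 99.7 in HF_HF. Nqo1 (probe 1), a quinone reductase and a standard readout of NRF2, lay between 88.2 and 134.4, with medians of 115.3, 120.2, 116.6 and 115.2 in the same order. The pairwise log2 differences ran from -0.06 to 0.05 for Hmox1 and from -0.07 to 0.03 for Nqo1. Their confidence intervals lay within -0.17 and 0.16 for Hmox1 and within -0.24 and 0.17 for Nqo1.

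**Figure D2:**
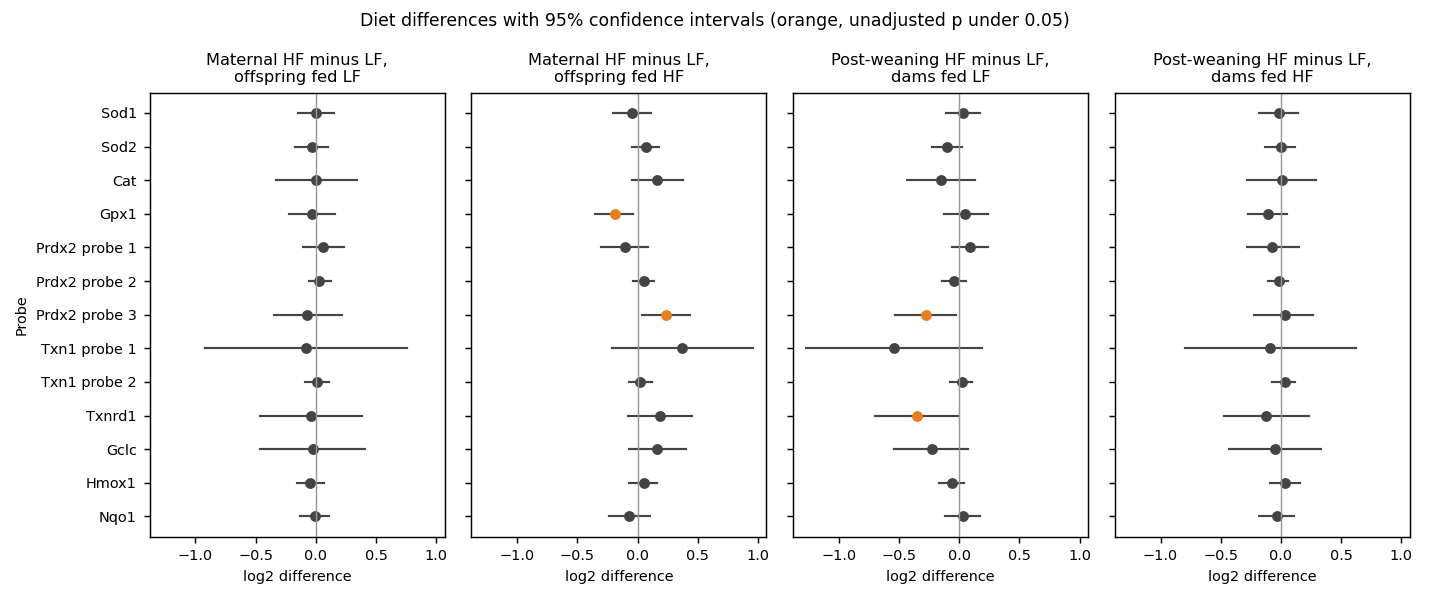
Log2 differences of the 13 tested probes in the 4 pairwise diet comparisons (x axis, HF minus LF), with 95% confidence intervals from limma. The 4 orange points are those with an unadjusted p under 0.05 (Gpx1 and Prdx2 probe 3 for maternal diet in HF-fed offspring, Prdx2 probe 3 and Txnrd1 for post-weaning diet among offspring of LF-fed dams), and none passed after adjustment.

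Over the 10 genes, with 1 probe each, the median log2 difference was -0.03 for maternal diet in LF-fed offspring (0.00 over all probes) and 0.06 in HF-fed offspring (-0.02). It was -0.08 for post-weaning diet among offspring of LF-fed dams (0.03) and -0.04 among offspring of HF-fed dams (0.00). In the order of those comparisons 3, 6, 4 and 2 of the 10 genes had a higher mean in the HF group. The interaction had a median of 0.10 (-0.02 over all probes), with Prdx2 probe 3 at the smallest p (0.31, SE 0.172, unadjusted p = 0.0847, adjusted p = 0.998). With diets averaged, the smallest p-values were those of Gpx1 for maternal diet (-0.11, SE 0.0595, adjusted p = 0.995) and of Txnrd1 for post-weaning diet (-0.24, SE 0.124, adjusted p = 0.837).

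The genes also varied among animals within every diet group, and several did so in a shared order. Txn1 probe 1 ranged from 311.5 to 925.9 (median 499.4) in the 15 animals with negative component scores and from 135.0 to 229.3 (median 162) in the 25 with positive scores. Gclc ranged from 109.5 to 204.6 (median 153.9) and from 79.2 to 109.1 (median 95.1). For these 2 of the 10 genes the sides did not overlap, with negative scores higher. This held for 5.37% of all tested probes, and the opposite for 0.488%. The component was built from such probes, so these ranges are a description.

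Txnrd1, Cat and Prdx2 probe 3 were also higher on the negative side, with medians of 130.8 against 87.6, 278.1 against 188.7 and 304.9 against 232.9, and Sod2 had medians of 2376 against 2072. Txnrd1 was above background in 14 of 15 animals on the negative side and in 12 of 25 on the positive side. Gpx1, Sod1, Prdx2 probe 1, Nqo1 and Hmox1 ran the other way. Gpx1 had a median of 2511 on the negative and 3217 on the positive side, Sod1 of 4608 and 5627, and Prdx2 probe 1 of 5265 and 6605. Prdx2 probe 2 (791.3 and 780.2) and Txn1 probe 2 (90.3 and 92) differed little. The genes thus did not move as one block along the component.

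**Figure D3:**
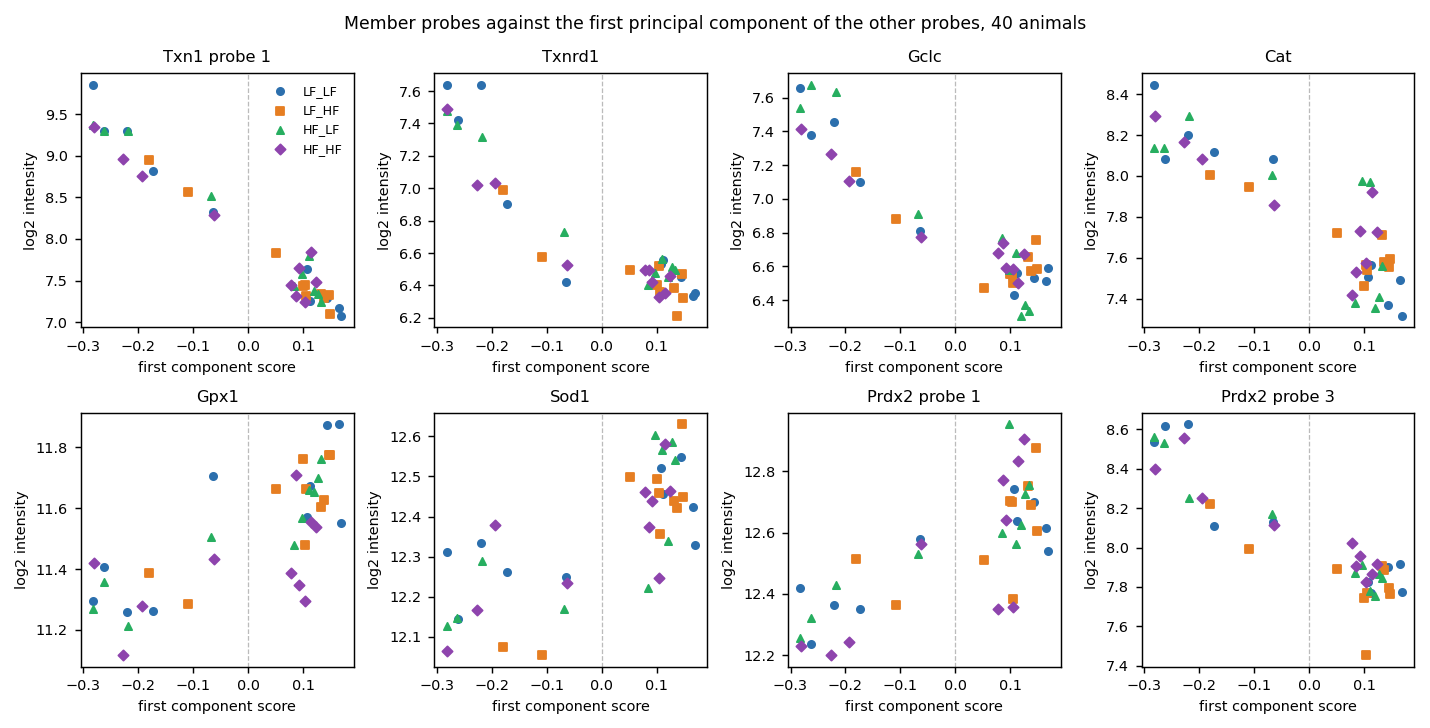
Log2 intensity of 8 member probes (y axis) against the score on the first principal component of the other probes (x axis), 40 animals, with symbols for the 4 diet groups. Txn1 probe 1, Txnrd1, Gclc, Cat and Prdx2 probe 3 fall from the negative to the positive scores, while Gpx1, Sod1 and Prdx2 probe 1 are higher at positive scores, and all 4 groups lie on both sides.

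Within each side the genes were set against the component score and against each other, with diet group means subtracted. Among the 15 animals with negative scores Txn1 probe 1 followed the score with r = -0.95 and rho = -0.92, Gclc with r = -0.95 and rho = -0.83, and Txnrd1 with r = -0.93 and rho = -0.90 (permutation p = 1e-05 each, the smallest that 100000 permutations can give, adjusted p = 8.67e-05 over 26 tests). Prdx2 probe 3 (r = -0.81, permutation adjusted p = 0.00104), Cat (r = -0.73, adjusted p = 0.00802) and Sod2 (r = -0.66, adjusted p = 0.0252) ran the same way, and Prdx2 probe 1 the opposite way (r = 0.78, adjusted p = 0.00499). By rank Sod2 did not pass (rho = -0.54, permutation adjusted p = 0.109). These were 7 of the 13 member probes, and 23.6% of all tested probes had an r of at least the same size (that of Sod2) with the score on this side, from which nothing is read, since the component was built from such probes. Without the 2 animals farthest in score these became -0.91 (Txn1), -0.90 (Gclc), -0.89 (Txnrd1), -0.75, -0.71, -0.63 and 0.65. Among the 25 animals with positive scores Txn1 probe 1 (r = -0.58, rho = -0.59, permutation adjusted p = 0.00865) and Txnrd1 (r = -0.51, rho = -0.47, permutation adjusted p = 0.0261) passed, with r = -0.32 and -0.41 without the 2 farthest animals. The background there, at the size of the Txnrd1 value, was 11.1% of all tested probes. By rank Txnrd1 did not pass (permutation adjusted p = 0.0554), its r was -0.17 with cage means subtracted, and it was above background in 12 of these 25 animals. In these animals Gclc had r = -0.01 (permutation adjusted p = 0.964). It lay there near background, at 79.2 to 109.1 intensity units and above background in 22 of 25 animals, which limits what this value can show.

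Of 45 pairs of genes 6 passed among the 15 animals and 3 among the 25 (permutation, adjusted over 90 tests), all with positive r. Of all pairs of the 9926 genes, 2.07% among the 15 animals and 3.35% among the 25 had an r at or above the lowest that passed among the members. The 6 were the pairs among Cat, Txn1, Txnrd1 and Gclc. The thioredoxin pair, Txn1 and Txnrd1, had r = 0.96 and rho = 0.95, Txn1 and Gclc r = 0.97 and rho = 0.85, and Txnrd1 and Gclc r = 0.94 and rho = 0.85 (permutation adjusted p = 0.0003 each). Cat had r = 0.84 with Txn1 (rho = 0.80), 0.81 with Gclc (rho = 0.90) and 0.73 with Txnrd1 (rho = 0.75), with permutation adjusted p = 0.00162, 0.0024 and 0.0251. The lowest of the 6 values was 0.64 without the 2 farthest animals and 0.70 with cage means subtracted in place of group means. Animals without a cage mate on the negative side add nothing to the latter, which therefore rests on fewer than 15 animals. On the negative side Txn1, Gclc, Txnrd1 and Cat each followed the component score (r = -0.95, -0.95, -0.93 and -0.73). The pairs were not tested with the component removed. Among the 25 animals r was 0.41 (Txn1 and Txnrd1), -0.07 (Txn1 and Gclc) and 0.05 (Txnrd1 and Gclc). Cat there had r = 0.59 with Txn1, 0.13 with Txnrd1 and 0.10 with Gclc. Txnrd1 and Gclc lay near background in those animals, which limits what their values can show.

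Among the 25 animals the pairs that passed were Sod1 with Nqo1 (r = 0.73, rho = 0.60, permutation adjusted p = 0.0009), Cat with Txn1 (r = 0.59, rho = 0.54, adjusted p = 0.0233) and Sod1 with Prdx2 (r = 0.57, rho = 0.52, adjusted p = 0.0252). Without the 2 farthest animals these were 0.55, 0.53 and 0.50. By rank correlation only Sod1 with Nqo1 passed here (adjusted p = 0.0286), Cat with Txn1 (adjusted p = 0.0711) and Sod1 with Prdx2 (adjusted p = 0.082) not. Cat with Txn1 was the 1 pair that passed on both sides by Pearson's r. Animals of one breeding cage had intraclass correlations from -0.23 to 0.04 over the 13 probes, after diet group means were subtracted. Each cage had 1 maternal diet and only 5 of the 12 held both post-weaning diets, so the subtraction also removed part of the differences between cages. These values therefore do not show that cage had no part.

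**Figure D4:**
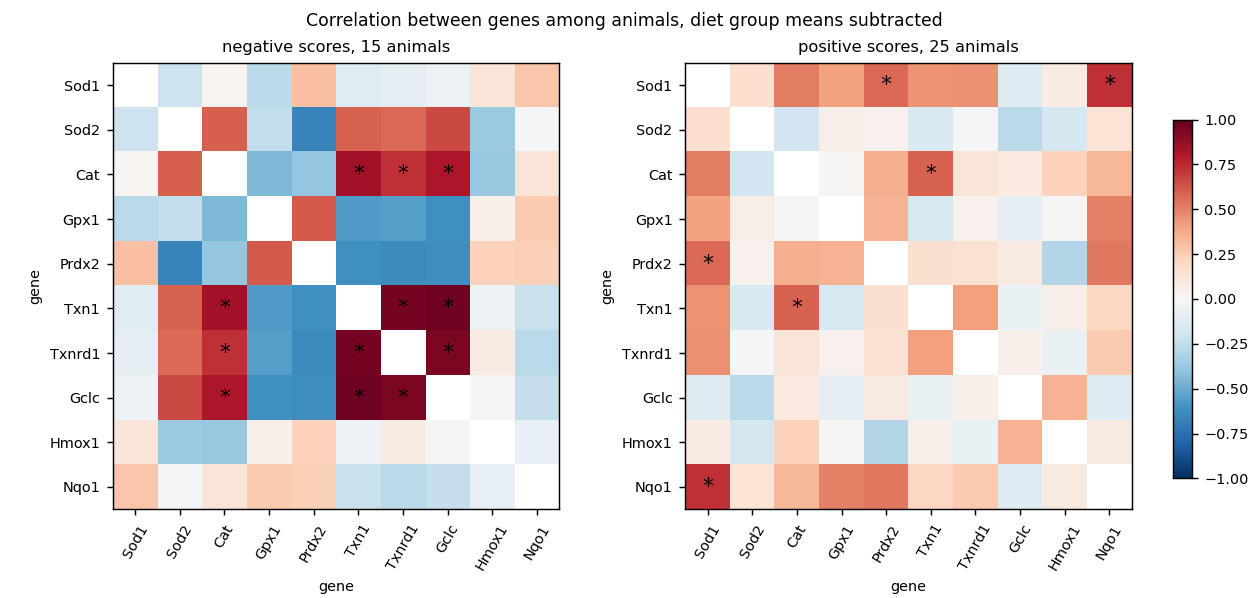
Pearson's r between the 10 genes (1 probe each) among the 15 animals with negative and the 25 with positive component scores, diet group means subtracted. Stars mark pairs with permutation adjusted p under 0.05, which are 6 pairs among Cat, Txn1, Txnrd1 and Gclc on the left and 3 pairs on the right.

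The genes most like each member were picked as the 2 with the highest r over the 40 arrays among 9926 genes, and their r within the 15 and the 25 animals is given as a description. Txn1 was most like Usp14 (0.97 and 0.81) and Chmp5 (0.96 and 0.90), and Txnrd1 most like Sprr2a1 (0.99 and 0.53) and Impa1 (0.97 and 0.66). Gclc was most like Abce1 (0.99 and 0.16) and Ctss (0.95 and 0.14), the latter a listed microglial marker. Cat was most like Paip2 (0.85 and 0.67) and Dst (0.84 and 0.64), and Sod2 most like Vdac2 (0.75 and 0.67) and Aktip (0.62 and 0.58). Nqo1 was most like Prdx3, a mitochondrial peroxiredoxin (0.82 and 0.77), and Enpp4 (0.72 and 0.75). Sod1 was most like Mthfd1 (0.84 and 0.77) and Chic2 (0.81 and 0.62), Gpx1 most like Dguok (0.64 and 0.77) and Itgb1bp1 (0.78 and 0.61), and Prdx2 most like Tmem53 (0.66 and 0.82) and C1qbp (0.51 and 0.78). Hmox1 was most like Sptlc1 (0.57 and 0.45) and Gngt2 (0.61 and 0.36).

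Other genes of the same pathways were read from lists of the glutathione and thioredoxin systems, other superoxide, haem, metal and selenium genes, NRF2 regulators, NADPH supply and oxidant sources, 87 genes of which 65 were above background. None was called in any of the 7 comparisons. At an unadjusted p under 0.05 there were 1 of 65 for maternal diet in LF-fed offspring (1.54%, against 1.38% of all probes) and 0 in HF-fed offspring (4.44% of all probes). For post-weaning diet there were 5 among offspring of LF-fed dams (7.69%, against 5.53%) and 2 among offspring of HF-fed dams (3.08%, against 1.21%). The median differences were 0.00, -0.01, 0.00 and 0.01, and over all probes 0.00, -0.02, 0.03 and 0.00.

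The smallest p-values in these lists recurred for few genes, in comparisons that share animals. All the Xdh values below use the HF_LF animals, and the averaged comparisons reuse the animals of the pairwise ones. Mt2, a metallothionein, was -0.19 for post-weaning diet among offspring of LF-fed dams (SE 0.0704, adjusted p = 0.717), -0.15 among offspring of HF-fed dams (SE 0.0859, adjusted p = 1) and -0.17 averaged (SE 0.0555, unadjusted p = 0.00432, adjusted p = 0.837). Selenow, a small selenoprotein, was 0.34 among offspring of LF-fed dams (SE 0.139, adjusted p = 0.717), and Mt3, the metallothionein of the brain, 0.29 (SE 0.115). Bach1, a repressor that competes with NRF2 at its motif, was 0.17 for post-weaning diet among offspring of HF-fed dams (SE 0.0629, adjusted p = 1). Xdh, a source of superoxide, was -0.19 there (SE 0.0662, adjusted p = 1). The smallest p-value of these genes was that of Xdh for maternal diet in LF-fed offspring (0.28, SE 0.0734, unadjusted p = 0.000947, adjusted p = 1). Its averaged maternal difference was 0.17 (SE 0.0487, adjusted p = 0.667) and its interaction -0.22 (SE 0.0974, adjusted p = 0.998). Glrx2, the mitochondrial glutaredoxin, was 0.32 for maternal diet in HF-fed offspring (SE 0.181, adjusted p = 0.853). Some of these genes also differed between the sides of the component (mean log2, negative minus positive). The values were -0.50 for Mt3, -0.27 for Selenow, 0.92 for Glrx2, 0.15 for Mt2, -0.07 for Xdh and -0.01 for Bach1. The LF_HF group, used for the Mt3, Selenow and Glrx2 differences above, had 2 animals of negative score. Diet differences of these genes within the sides were not examined.

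Along the component, 8 of the 65 genes had ranges on the negative side wholly above the positive side and 0 wholly below, beside the 5.37% and 0.488% of all probes. They were Glrx3, Glrx2, Msrb1, Oxr1, Rbx1, Nfe2l1, Me1 and Idh2. Idh2, the mitochondrial NADPH-forming isocitrate dehydrogenase, had 619.5 to 1328.4 on the negative and 196.2 to 387.4 on the positive side (mean log2 difference 1.76), while cytosolic Idh1 had -0.23 with overlapping ranges. Genes of one enzyme or pathway, read with 1 probe each, could part in this way. Gclc differed by 0.69 and its modifier subunit Gclm by -0.02. Probes of the same gene parted too. Prdx2 probe 1 had a mean log2 intensity of 12.37 on the negative and 12.66 on the positive side. Prdx2 probe 3 had 8.34 and 7.84. Whether the genes or only their probes differ in this way was not tested. Several genes known to be raised by NRF2 also parted, and the part of NRF2 was not tested. Txn1 (1.59), Txnrd1 (0.67), Gclc, Me1 (376.4 to 671.5 against 192.6 to 286.1 intensity units), Gstm1 (0.39) and Prdx1 (0.10) had higher means on the negative side. Nqo1 (-0.21), Hmox1 (-0.10), Srxn1 (-0.31), Slc7a11 (-0.31) and Gclm had lower means. Nfe2l2 itself was 0.00, at 95.4 to 123.4 and 92.6 to 125.6 intensity units, close to background (81.8 to 91.4). These genes were singled out after their values were seen. The median over the 10 members was 0.05, and over all tested probes -0.09. The cell type marker lists had medians from -0.31 (blood) to 0.12 (choroid plexus), with microglia at -0.19, astrocytes at -0.12 and neurons at -0.03. The list means of microglia and astrocytes ran the other way. They were 8.46 on the negative and 8.31 on the positive side for microglia, and 10.46 and 10.23 for astrocytes. Higher on the negative side were 2 of 10 microglial and 4 of 9 astrocyte markers. The part of cell type in the component was not tested.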

How the data were processed

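Illumina MouseRef-8 v2.0 arrays carried whole-brain RNA of 40 male mice, 1 animal each. The deposited values are probe intensity on the linear scale, quantile-normalised by the authors in BeadStudio, whose version is not given in the sources used here. Background had not been subtracted. Arrays have no read depth, and their number limits the precision. Each animal's group and cage were read from its label. Replicates were separate animals, some sharing a cage.

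Intensities were log2-transformed with no offset. Of 25697 probes, 23978 had 1 gene symbol, 1719 none and 0 several. Probes above background (95th percentile of receptor probes) in at least 20 arrays were kept. Pairs of groups were fitted in limma 3.58.1 (R 4.3.3; lmFit and eBayes with a mean-variance trend, 20 arrays), the interaction and averaged comparisons over 40 arrays, with Benjamini-Hochberg adjustment over 14350 probes and a threshold of 0.05. The fit was tested on simulated data. For a gene with several probes, the kept probe with the highest mean stood for the gene. Correlations (100000 permutations, two-sided; numpy 2.4.6, pandas 2.3.3, scipy 1.17.1) had been planned over 40 animals and were computed within the sides of the first component once the gap in its scores was seen. Figures were drawn with matplotlib 3.10.9.

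All member probes are named. Of the wider lists, genes with an adjusted p under 0.05, or otherwise the 3 with the smallest p in a comparison, were eligible, and for each member the 2 genes most like it. The members and lists were chosen with earlier results of these data known. Alternatives covered cyclic loess, an offset of 50, the background filter, the variance trend, a regularised t-test (prior weight 10), array weights, cage as a block or mean, cages or arrays left out, the component as a covariate and the probe standing for a gene. Fits within each side of the component were added after the data were seen.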

Additional observations from a re-analysis of the deposited data

Results flagged for a closer look

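In 60 sets of 10 animals (15 probes in 4 groups), 2 had an animal whose distance to its nearest neighbour took up an unusual share of the group's range, and chance alone gives about 1 in 20. For Txn1 probe 2 the lowest HF_HF animal had 77.2 intensity units and the next 88.7 (log2 6.27 and 6.47), a share of 0.541. This animal was replicate 10 from cage 21 and had a positive component score. For Txnrd1 the highest LF_HF animal had 127.3 and the next 95.4 (log2 6.99 and 6.58), a share of 0.534. It was replicate 9 from cage 11 and was 1 of the 2 LF_HF animals with a negative component score.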

How the results depend on the processing

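The 91 member differences were recomputed in 2039 alternatives, and no member probe passed in any of them (smallest adjusted p = 0.242, Sod2, Txn1 probe 1, Txnrd1 and Prdx2 probe 3 for post-weaning diet among offspring of LF-fed dams). Direction was followed for the 32 differences larger than their SE, and 15 alternatives turned it. With the first component as a covariate Txn1 probe 1 for maternal diet in HF-fed offspring went from 0.37 to -0.01, and Cat for post-weaning diet among offspring of LF-fed dams was 0.03. In animals with positive scores the latter comparison gave Cat 0.14, Sod2 0.00, Txn1 probe 1 0.10 and Gclc 0.06, and the averaged post-weaning comparison gave Sod2 0.00, Txn1 probe 1 0.07, Gclc 0.09 and Prdx2 probe 3 0.01. With cage as a fixed block Sod2 was 0.03 among offspring of LF-fed dams, and Sod2 0.03, Txn1 probe 1 0.02 and Prdx2 probe 3 0.01 in the averaged post-weaning comparison. In animals with negative scores the Gpx1 interaction was 0.03. The causes were not tested. Of the 59 differences within 1 SE, 56 changed sign or reached 0.00 somewhere. Of the 7 medians over members, only that of the averaged post-weaning comparison kept its sign throughout (-0.11 to -0.01), and the interaction median of 0.10 ranged from -0.05 to 0.13.

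Counts over all probes also moved. For post-weaning diet among offspring of LF-fed dams 6 probes were called among negative scores (0 otherwise). Among offspring of HF-fed dams 1 was called with cyclic loess, array weights, the component as a covariate and among positive scores. The interaction had 1 with no background filter, and averaged maternal diet 1 with the covariate. Averaged post-weaning diet had 2, but 0 without the arrays that stood apart, with cage as a fixed block and among negative scores, 1 among positive scores, and 0 to 3 with single cages left out. By replicate number no paired analysis was possible because of how replicates are numbered (by order of the samples, pairing no animals). Cage mates under both diets, present in 5 of the 12 cages, could be compared within their cage. This was done only through cage as a fixed block. Probes near background (Txnrd1, Gclc, Hmox1, Nqo1 probe 1, Txn1 probe 2) limit how small a difference can be seen.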
